A study of Mus musculus with 2 samples.

Results

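The genes described here encode the constant chains of the T-cell receptor and the 3 small CD3 chains that carry it: Trac, Trbc1, Trbc2, Trdc, Tcrg-C1, Tcrg-C2, Tcrg-C4, Cd3d, Cd3e and Cd3g. They were chosen by name, and all 10 were found among the 48825 features listed for both libraries. The samples were single-cell RNA libraries of the parotid gland, a salivary gland of serous acinar cells, from wild-type (WT) female mice of the C3H strain. The control library came from mice that were not irradiated, at 1 year of age. The IR library came from mice that were given 6 Gy to the head and neck on each of 5 days, 30 Gy in all, at 6 to 10 weeks of age, and were collected 10 months later, also at 1 year. Each library pooled 2 mice, so each condition had 1 library and no replicate, and no test between conditions was possible. The question of the comparison was how receptor and CD3 transcripts were spread over the lymphocytes of the gland, and how their levels in the IR library differed from those in the control library.

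A T-cell receptor is a pair of chains, either alpha with beta or gamma with delta, and each chain joins a rearranged variable region to a constant region. The receptor chains have very short tails inside the cell and cannot signal alone, so they are held at the surface by the gamma, delta and epsilon chains of CD3 and by the zeta chain, encoded by Cd247. Most T-cells of lymph nodes, blood and glands carry alpha and beta chains, while gamma-delta T-cells are enriched in epithelia and include cells that make interleukin 17. Natural killer (NK) cells are related lymphocytes that assemble no antigen receptor and use other adaptors, such as those encoded by Fcer1g and Tyrobp.

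The constant genes lie in clusters, and some are near copies of each other, which matters for how UMIs (unique molecular identifiers, tags that mark single RNA molecules) are shared out between them. Positions are from the mouse build GRCm38 with the GENCODE M21 annotation, and bases are from its transcripts, not from C3H mice. Trbc1 (chr6:41538218-41539881, + strand) and Trbc2 (chr6:41546730-41548352, +) are 6849 bases apart. Their first exons have 375 bases each and differ at 1 position, C260A, counted from 1 at the start of the exon with the Trbc1 base first. Over the 518 coding bases they differ at 23, an identity of 95.6%, and in the untranslated bases they are 55.1% identical. The stretch around the single difference of the first exons is shown because the pair is nearly identical there, and the third exons are shown because they hold 15 of the 23 coding differences. Exon 1 is shown at chr6:41538447-41538507 for Trbc1 and chr6:41546959-41547019 for Trbc2. Exon 3 is shown whole, at chr6:41539229-41539335 and chr6:41547772-41547878. Capitals mark the bases that differ.
Trbc1 exon 1: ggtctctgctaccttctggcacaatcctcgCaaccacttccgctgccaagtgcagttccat
Trbc2 exon 1: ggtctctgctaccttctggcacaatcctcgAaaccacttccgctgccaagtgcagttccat
Trbc1 exon 3: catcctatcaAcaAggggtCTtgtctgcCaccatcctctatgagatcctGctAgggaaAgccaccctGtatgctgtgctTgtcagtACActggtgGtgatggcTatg
Trbc2 exon 3: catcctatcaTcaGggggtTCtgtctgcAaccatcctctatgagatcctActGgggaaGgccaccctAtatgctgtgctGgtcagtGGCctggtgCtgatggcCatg

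Among the gamma constant genes, Tcrg-C1 (chr13:19214103-19217024, +) and Tcrg-C2 (chr13:19304649-19307551, -) are close copies, with 94.6% of coding bases and 93.5% of untranslated bases identical. Tcrg-C4 (chr13:19344558-19352756, +) is more distant from both, with 82.1% of first-exon bases shared with Tcrg-C1. The first 90 bases of the first exon are shown for the 3 genes because they let this be seen: within them Tcrg-C1 and Tcrg-C2 differ at 1 base, and Tcrg-C1 and Tcrg-C4 at 12. Capitals mark positions where the 3 genes are not all the same, and the regions are chr13:19214103-19214192 (+), chr13:19307462-19307551 (-) and chr13:19344558-19344647 (+).
Tcrg-C1 exon 1: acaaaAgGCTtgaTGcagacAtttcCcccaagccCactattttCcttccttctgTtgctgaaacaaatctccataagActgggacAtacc
Tcrg-C2 exon 1: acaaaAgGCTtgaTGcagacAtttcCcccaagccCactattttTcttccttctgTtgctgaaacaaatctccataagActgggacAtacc
Tcrg-C4 exon 1: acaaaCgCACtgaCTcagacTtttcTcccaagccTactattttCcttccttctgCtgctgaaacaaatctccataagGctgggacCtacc

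Of 60-base windows, 263 of the 678 in the Trbc1 transcript also occurred in Trbc2, and 103 of the 865 in Tcrg-C1 also occurred in Tcrg-C2. No window was shared between Tcrg-C4 and the other two. The libraries tag the 3′ ends of transcripts, where Trbc1 and Trbc2 differ most. How reads that fit both copies were counted is not given in the sources used here, so the split between Trbc1 and Trbc2, and more so that between Tcrg-C1 and Tcrg-C2, is uncertain. Trac (chr14:54220521-54224206, +) and Trdc (chr14:54142851-54148868, +) lie 71653 bases apart in the shared alpha and delta locus and have no such copy.

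The control library had 3378 cells after filtering, with a median of 2907.5 UMIs, and the IR library had 5286 cells with a median of 2461.5 UMIs. Abundant genes, which are secretory, mitochondrial and haemoglobin genes and the gene Gm42418, took 51.8% of control UMIs and 37.8% of IR UMIs. The libraries shared 12 cell barcodes, 3 of them among the kept cells. Cells were clustered without the 10 genes and without any receptor segment, so the classes were not made from the values described, and levels are given as UMIs per 1e6 UMIs of the class (CPM). Intervals are 95% intervals that cover counting error only, not the spread between mice or libraries, and PCR and droplet effects are not part of them. T-cells made up 1193 of the control cells (35.3%) and 2857 of the IR cells (54.0%). They fell into naive-like Cd4-rich cells (389 control and 1089 IR cells), naive-like Cd8-rich cells (247 and 618), Treg-like cells (98 and 293), effector CD8-like cells (224 and 392), 2 unnamed clusters and a small class named for Cxcr6. The names rest on marker lists, such as 7 of 7 Treg markers in the Treg-like cells, and were given after the clusters were seen. Of the unnamed clusters, cluster 6 (93 and 212 cells) was led by Ccl1, Il5 and Il13, and cluster 7 (96 and 206 cells) was led by genes that include the acinar genes Amy1, Prb1 and Bpifa2. These 6 classes, the Cxcr6-type cells left out, are called the alpha-beta classes below.

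Over all cells the 10 genes together gave 1003 CPM in the control and 2279 CPM in IR. The largest single gene was Trbc2, with 5345 UMIs in the control and 13853 in IR, and the smallest was Tcrg-C4, with 27 and 58 UMIs. Of 10 genes, 8 were higher in the IR library by at least 1.5-fold, the fold used here in place of a test, where 31.0% of the 13805 genes with 25 or more UMIs in the summed libraries were. Trac was 2.60-fold higher (2.45–2.75), Cd3e 2.44-fold (2.26–2.65) and Trbc2 2.43-fold (2.35–2.51). Trdc had a ratio below 1, at 0.702 (0.625–0.789), short of that fold. These calls depend on the abundant genes: with those left out of the totals, 7 members were higher, where 10.2% of all genes were, and 1 was lower, where 13.8% were. Tcrg-C2 was then at 1.33 (0.875–2.06) and Trdc at 0.545 (0.485–0.612). A higher share of T-cells and more RNA of a gene in each T-cell cannot be told apart in such sums. Cells with a UMI of any CD3 chain were 39.4% of control cells (1332 cells) and 59.6% of IR cells (3152 cells).

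Trac encodes the alpha constant chain and had 376 CPM in the control and 541 CPM in the IR alpha-beta classes. Across the 6 classes it ranged from 319 CPM in cluster 7 to 571 CPM in cluster 6 in the control, and from 414 to 763 CPM in the same clusters in IR. Trbc1, one of the beta constant genes, had 782 and 1069 CPM in the alpha-beta classes together. Trbc2, the other beta constant gene, had 1199.6 and 1629 CPM and had ranks of 128 and 106 among all genes there. In each of the 6 classes and both libraries the order was Trbc2 over Trbc1 over Trac. T-cells held 88.0% of the Trbc2 UMIs of control cells and 88.2% of those of IR cells. A further 6.68% and 7.23% lay in an unnamed shallow cluster of 141 control and 359 IR cells, with medians of 885 and 780 UMIs, in which all 6 cycling and all 5 erythroid markers were high.

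**Figure D1:**
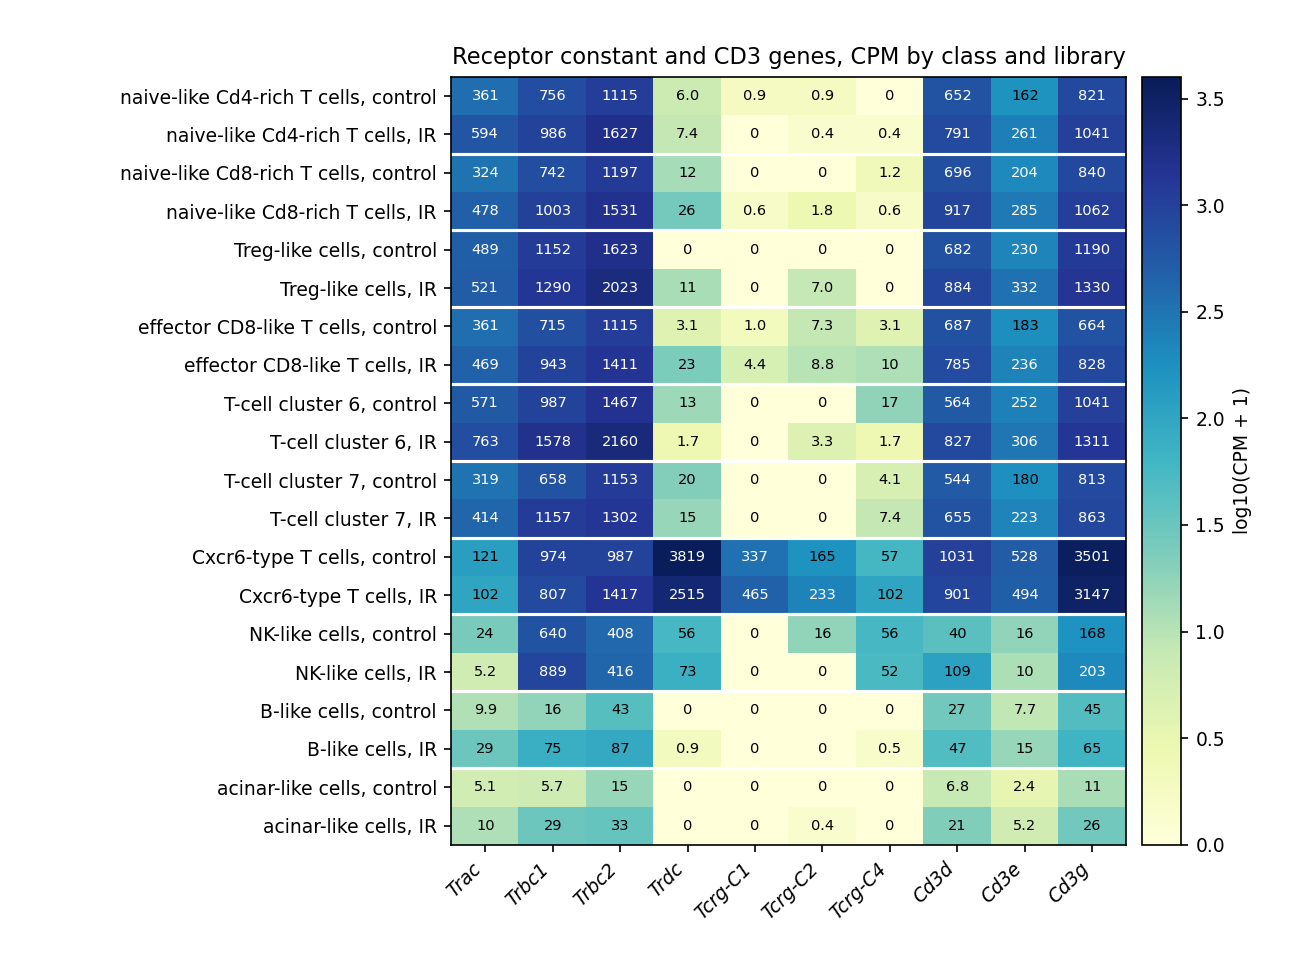
Heat map of the 10 genes (columns) in 10 classes of the control and IR libraries (rows), coloured by log10(CPM + 1) with the CPM written in each cell. The Cxcr6-type T-cells stand out for Trdc (3819 CPM in the control and 2515 CPM in IR) and Cd3g (3501 and 3147 CPM), and the NK-like cells for Trbc1 and Trbc2 with little Trac.

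The share of beta UMIs that came from Trbc1 was near 40% in the pooled alpha-beta classes of both libraries. Trbc1 made up 39.5% of beta UMIs in the control alpha-beta classes (38.4–40.6%) and 39.6% in the IR ones (39.0–40.3%). In the naive-like Cd4-rich cells the share was 40.4% and 37.7%, and in the effector CD8-like cells it was 39.1% and 40.1%. In cluster 7 it was 36.3% (31.9–41.0%) in the control and 47.1% (43.9–50.2%) in IR, and in the Cxcr6-type cells it was 49.7% (44.0–55.4%) and 36.3% (30.9–41.9%), so these classes moved in opposite directions. The share was also higher in the IR library in classes that should lack the receptor, at 27.0% and 46.1% in B-like cells and 27.9% and 47.0% in acinar-like cells. At least 4 beta UMIs were found in 15 control and 28 IR B-like cells and in 6 and 13 acinar-like cells. These shares therefore rest in part on few cells. Cluster 7 had acinar genes among its leading genes, and their part in its share was not tested.

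A single T-cell can use either beta constant gene on each chromosome. Among alpha-beta cells with at least 4 beta UMIs, 62.0% of 835 control cells and 64.6% of 2074 IR cells had UMIs of both Trbc1 and Trbc2. Only Trbc2 was seen in 31.3% and 31.0% of them, and only Trbc1 in 6.71% and 4.44%. Cells with UMIs of Trbc1 alone were thus fewer than cells with Trbc2 alone in both libraries. The part that reads shared between the copies have in the cells with both was not tested.

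**Figure D2:**
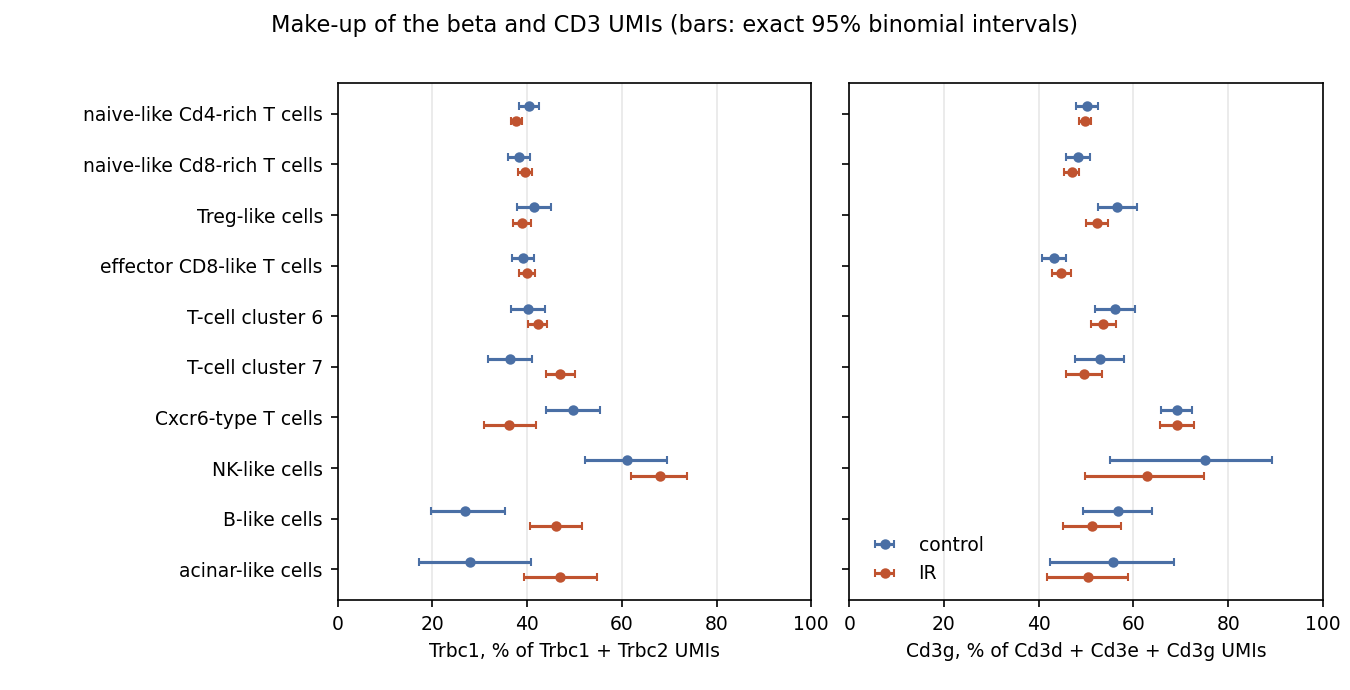
Percent of beta UMIs that came from Trbc1 (left) and percent of CD3 UMIs that came from Cd3g (right) in 10 classes, as points with exact 95% binomial intervals, control and IR in separate colours. The NK-like cells lie furthest to the right for Trbc1 (61.1% and 68.1%), and the Cxcr6-type T-cells at 69.2% and 69.3% for Cd3g lie to the right of the alpha-beta classes.

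Gamma and delta transcripts were highest in the Cxcr6-type T-cells, a class of 46 control and 47 IR cells in which 12 of 13 markers of that type, a list that holds Cd163l1, Blk and Il17a, were high. Of 12 general T-cell markers 4 were high in them, and all of these cells had a UMI of a CD3 chain. Trdc encodes the delta constant chain and reached 3819 CPM in the control (600 UMIs) and 2515 CPM in the IR cells (346 UMIs). In the alpha-beta classes it had 7.65 CPM (29 UMIs) and 14.8 CPM (109 UMIs). The Cxcr6-type cells were thus 499-fold higher in the control (344–752) and 170-fold higher in IR (137–213). They held 88.9% of control Trdc UMIs and 68.4% of IR Trdc UMIs.

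The 3 gamma constant genes followed the same class at lower levels. Tcrg-C1 had 337 and 465 CPM in the Cxcr6-type cells, Tcrg-C2 had 165 and 233 CPM, and Tcrg-C4 had 57.3 and 102 CPM. In the pooled alpha-beta classes none of the 3 passed 3.12 CPM in either library. Tcrg-C1 made up 60.2% of gamma UMIs in the control Cxcr6-type cells (49.2–70.5%) and 58.2% in the IR ones (48.4–67.5%), and the order of the 3 genes was the same in both. Of the 10 genes, 9 control and 10 IR genes had at least 25 UMIs over the Cxcr6-type and alpha-beta cells. In the control 5 were at least 2-fold higher in the Cxcr6-type cells and 1 was lower, where 15.1% of all genes were higher and 21.5% lower. In the IR library these counts were also 5 and 1, where 15.9% and 24.0% of all genes were. In the control Tcrg-C1 and Tcrg-C2 reached 25 UMIs only through the Cxcr6-type cells, where they are high. In the IR library all 3 gamma genes did, so the counts of both libraries are a description of the class.

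Most Cxcr6-type cells with gamma UMIs also had delta UMIs. Trdc was seen in 43 of 46 control and 36 of 47 IR Cxcr6-type cells, and every one of the 32 control cells with a gamma UMI also had a Trdc UMI. In the IR library 32 of the 37 cells with a gamma UMI did. Trdc reached 35 UMIs in 1 control cell and 23 in 1 IR cell. The Cxcr6-type cells were not empty of the other receptor: 37 of 46 control and 34 of 47 IR cells had both delta and beta UMIs. Trbc1 had 974 and 807 CPM in them, 1.24 times (1.05–1.46) and 0.755 times (0.620–0.910) the alpha-beta level, and Trbc2 had 987 and 1417 CPM, 0.822 times (0.696–0.965) and 0.870 times. Trac was lower in them, at 121 CPM (19 UMIs) and 102 CPM (14 UMIs), 0.322 times (0.193–0.505) and 0.188 times (0.103–0.316) the level of the alpha-beta classes. Cells with both delta and alpha UMIs were 9 of 46 and 8 of 47.

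Variable segments, which are joined to the constant regions by rearrangement, were counted apart from them. Trdv4 was the most counted delta segment, with 44 control and 28 IR UMIs in all, of which 40 and 23 were in Cxcr6-type cells, in 26 of 46 control and 14 of 47 IR cells. Trdv1 had no UMI in these cells and had 12 UMIs in 9 IR cells of the alpha-beta classes, against 1 UMI in the control. Trdv2-2 had 1 control and 13 IR UMIs, 9 of them in the IR alpha-beta classes. Over all segments the counts were low, with 46 control and 53 IR UMIs in the delta segments and 7 and 7 in the gamma segments. The highest gamma segment was Trgv2, with 5 control and 4 IR UMIs.

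A small number of cells of the alpha-beta classes also had delta UMIs. Trdc was seen in 12 of 1147 control cells and in 47 of 2810 IR cells, which is 1.05% and 1.67%. At least 3 Trdc UMIs were found in 4 control and 16 IR cells, which held 19 of the 29 control UMIs and 68 of the 109 IR UMIs. Of the IR cells with Trdc, 11 had a gamma UMI, 19 an alpha UMI and 47 a beta UMI. Among the IR classes Trdc was highest in the naive-like Cd8-rich cells, at 25.8 CPM, 2.25 times the other alpha-beta classes (1.498–3.35), and in the effector CD8-like cells at 22.7 CPM, 1.75 times the others (1.11–2.68). In the control the naive-like Cd8-rich cells had 11.8 CPM on 10 UMIs, 1.83 times the others (0.758–4.13). The control effector CD8-like cells went the other way, at 3.13 CPM on 3 UMIs, 0.340 times the others (0.0659–1.11). B-like cells had 0 Trdc UMIs in the control, which allows up to 1.29 CPM, and 2 in IR, and acinar-like cells had 0 in both, which allows up to 1.01 and 1.12 CPM.

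NK-like cells, 34 in the control and 82 in IR with 8 of 10 NK markers high, had beta transcripts with few UMIs of the other chains. Of 13 markers of the Cxcr6 type 7 were also high in them, and of 7 effector CD8 markers 7. Trbc1 had 640.3 CPM (508–797) and 889 CPM (761–1033) there, 0.818 times (0.647–1.02) and 0.832 times (0.711–0.968) its level in the alpha-beta classes. Trbc2 was lower, at 408 and 416 CPM, 0.340 times (0.253–0.448) and 0.256 times (0.202–0.318) the alpha-beta level. Trac had 3 UMIs in the control and 1 UMI in the IR cells, or 24.0 and 5.20 CPM. Of genes with at least 25 UMIs, 5 of 7 in the control and 5 of 8 in IR were at least 2-fold lower than in the alpha-beta classes, where 17.5% and 18.9% of all genes were. Of these, Trac, Cd3d and Cd3e in both libraries and Cd3g in the control reached 25 UMIs only through the alpha-beta classes. They are high there, so the counts are a description. Trdc was higher in both, where 17.4% and 15.3% of all genes were, on 7 and 14 UMIs, and so was Tcrg-C4 in the IR cells on 10 UMIs. Tcrg-C4 reached 25 UMIs there only through the NK-like cells, where it is high.

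The beta UMIs of NK-like cells differed in make-up from those of the alpha-beta classes. Trbc1 made up 61.1% of them in the control (52.2–69.5%) and 68.1% in IR (62.0–73.8%), above the other classes in the plot of shares. In the control this interval overlapped that of the Cxcr6-type T-cells. Cluster 11, of 7 control and 12 IR cells led by B-cell genes and not plotted, had 72.1% (59.2–82.9%) in the control and 23.9% (14.3–35.9%) in IR. Of its cells, 6 in the control and 10 in IR were among the 6% with the highest doublet scores. In it 6 of 7 B-cell markers and 6 of 12 T-cell markers were high, so it may not be a class of single cells. Of NK-like cells with at least 2 beta UMIs, 12 of 22 in the control and 25 of 51 in IR had Trbc1 alone, and 1 and 3 had Trbc2 alone. A UMI of a beta gene was found in 25 of 34 and 65 of 82 cells, and a UMI of any CD3 chain in 7 of 34 and 24 of 82. In 19 of 34 control and 44 of 82 IR cells an alpha or beta UMI came with no CD3 UMI. In the control alpha-beta classes the same was true of 2.09% of cells and in the IR ones of 2.42%.

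The CD3 chains were present in every T-cell class at levels that differed by gene. Cd3d encodes CD3 delta and had 659 CPM in the control and 823 CPM in the IR alpha-beta classes. Cd3e encodes CD3 epsilon and had 190.0 and 270.3 CPM. Cd3g encodes CD3 gamma and had 828 and 1047 CPM. Because the counts are of tagged ends and not of read coverage, these levels carry no correction for length, and the capture of each gene's end may differ. Within 1 gene the classes can be ranked. For Cd3g in the control the order was Cxcr6-type (3501 CPM), Treg-like (1190 CPM, 321 UMIs), cluster 6 (1041 CPM), naive-like Cd8-rich (840 CPM), naive-like Cd4-rich (821 CPM), cluster 7 (813 CPM), effector CD8-like (664 CPM) and NK-like (168 CPM). In it the intervals of the Treg-like cells and cluster 6 overlapped, as did those of the 2 naive-like classes and cluster 7. The interval of cluster 7 also overlapped those of cluster 6 and of the effector CD8-like cells. In the IR library the ends of the order were the same, from 3147 CPM in the Cxcr6-type cells through 1330.3 CPM in the Treg-like cells to 828 CPM in the effector CD8-like cells and 203 CPM in the NK-like cells. There the intervals of cluster 7 (863 CPM) and the effector CD8-like cells overlapped, as did those of cluster 6 (1311 CPM) and the Treg-like cells. B-like cells had 45.2 and 65.1 CPM of Cd3g and acinar-like cells 11.5 and 26.5 CPM.

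Cd3g set the Cxcr6-type cells apart more than the other CD3 chains did. It was 4.23 times the alpha-beta level in the control (3.85–4.63) and 3.01 times in IR (2.72–3.31). Cd3e was 2.78 times (2.19–3.49) and 1.83 times (1.41–2.33) that level, and Cd3d 1.56 times (1.33–1.83) and 1.09 times (0.909–1.31). As a share of the CD3 UMIs, Cd3g made up 69.2% of those of Cxcr6-type cells in the control (65.8–72.4%) and 69.3% in IR (65.5–72.9%), against 49.4% and 48.9% in the alpha-beta classes. The lowest share among T-cell classes was that of the effector CD8-like cells, at 43.3% (40.7–45.9%) and 44.8% (42.9–46.8%). In NK-like cells Cd3g gave 21 of 28 control and 39 of 62 IR CD3 UMIs. These shares do not depend on the scaling of the libraries.

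The 3 CD3 genes lie side by side on chromosome 9, and Cd3d (chr9:44981786-44987339, +) and Cd3g (chr9:44969572-44980431, -) point away from each other, with starts 1355 bases apart. Cd3e (chr9:44998740-45009627, -) lies beyond Cd3d. Promoters from RefSeq (GRCm38.p6) matched the 3 CD3 genes, and the 250 bases before each RefSeq start are shown because these 3 genes share a locus and a set of expressing classes. The regions are chr9:44981536-44981785 (+) for Cd3d, chr9:45009612-45009861 (-) for Cd3e and chr9:44980432-44980681 (-) for Cd3g. The RefSeq start of Cd3e lies inside the gene as GENCODE bounds it, so its region overlaps the coordinates given above. Capitals mark matches on either strand to the E-box, GATA, TCF and ETS letters given after the sequences, and no matches overlap.
Cd3d promoter: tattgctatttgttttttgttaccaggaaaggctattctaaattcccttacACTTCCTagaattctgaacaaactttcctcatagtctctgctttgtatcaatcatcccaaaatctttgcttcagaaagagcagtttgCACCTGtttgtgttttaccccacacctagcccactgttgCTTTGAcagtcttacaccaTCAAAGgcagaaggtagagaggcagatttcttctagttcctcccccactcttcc
Cd3e promoter: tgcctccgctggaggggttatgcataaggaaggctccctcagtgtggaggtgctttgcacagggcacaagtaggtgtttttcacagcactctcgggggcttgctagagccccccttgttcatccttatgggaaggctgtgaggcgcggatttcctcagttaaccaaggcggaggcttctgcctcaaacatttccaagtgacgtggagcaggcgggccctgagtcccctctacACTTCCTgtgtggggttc
Cd3g promoter: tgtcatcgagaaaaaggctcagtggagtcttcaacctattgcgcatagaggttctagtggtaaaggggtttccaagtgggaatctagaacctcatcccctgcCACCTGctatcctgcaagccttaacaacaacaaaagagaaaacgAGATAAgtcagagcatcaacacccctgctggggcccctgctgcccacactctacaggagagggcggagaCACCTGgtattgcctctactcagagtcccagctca

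The E-box letters searched, CAGGTG, occurred at 1 place in the Cd3d promoter and at 2 places in that of Cd3g, and in 17.2% of the 32851 promoters of the same length. The ETS letters, ACTTCCT, occurred in those of Cd3d and Cd3e and in 7.69% of all promoters. The GATA letters, AGATAA, occurred in that of Cd3g alone of the 3 and in 9.99% of all. The TCF letters, CTTTGA, occurred at 2 places in that of Cd3d and in 13.8% of all. TGTGGT, the letters searched for RUNX factors, occurred in none of the 3 and in 14.0% of all. A match is a description of these letters only.

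Across the summed counts of 14 classes in 2 libraries (28 points, which share library, depth and genes of common lineage), the genes most like the summed CD3 chains by Pearson correlation of log2(CPM + 10), among 8374 genes with at least 200 UMIs, were Lat (0.98), Bcl11b (0.95), Klk8 (0.95), Madd (0.92) and Cdk2ap2 (0.91). Lat encodes an adaptor that receptor kinases phosphorylate, and Bcl11b a transcription factor of the T-cell lineage. Lat had 700.1 and 712 CPM in the Cxcr6-type cells and 64.0 and 67.6 CPM in the NK-like cells. Among the genes described here the coefficients with the CD3 sum were 0.96 for Trbc2, 0.92 for Trbc1, 0.88 for Trac, 0.49 for Trdc and 0.27 to 0.40 for the gamma genes. They were 0.97 to 0.99 for the CD3 chains, which are part of that sum.

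Depth affects how many cells show these transcripts, so each cell with at least 1000 UMIs was also thinned to 1000 UMIs. Cells with fewer were left out, which kept 1132 of 1147 control and 2756 of 2810 IR alpha-beta cells. A UMI of any CD3 chain was then found in 78.8% of control alpha-beta cells (76.3–81.1%) and 86.1% of IR ones (84.8–87.4%). Before thinning it was found in 97.7% and 97.3% of all alpha-beta cells, those of lower depth included. It was found in 46 of 46 control and 45 of 46 IR Cxcr6-type cells. In B-like cells, which should lack the receptor, it was found in 3.16% (2.07–4.59%) and 5.04% (3.64–6.77%), and in acinar-like cells in 2.47% and 7.39%. Median depth before thinning was 3196 and 2489.5 UMIs in alpha-beta cells, 2538.5 and 2181 UMIs in B-like cells, and 3464 and 2169 UMIs in NK-like cells. Cells with a beta UMI were 79.2% and 87.3% of alpha-beta cells, 57.6% (39.2–74.5%) and 63.2% (51.3–73.9%) of NK-like cells, and 2.92% and 4.79% of B-like cells. The NK-like share of cells with beta UMIs was therefore above that of the B-like and acinar-like cells in both libraries. For Trac in NK-like cells the share was 1 of 33 control and 0 of 76 IR cells, with intervals (0.0767–15.8% and 0–4.74%) that overlapped those of the B-like cells (0.133–1.24% and 0.943–2.87%), so it cannot be told apart from background at this depth.

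**Figure D3:**
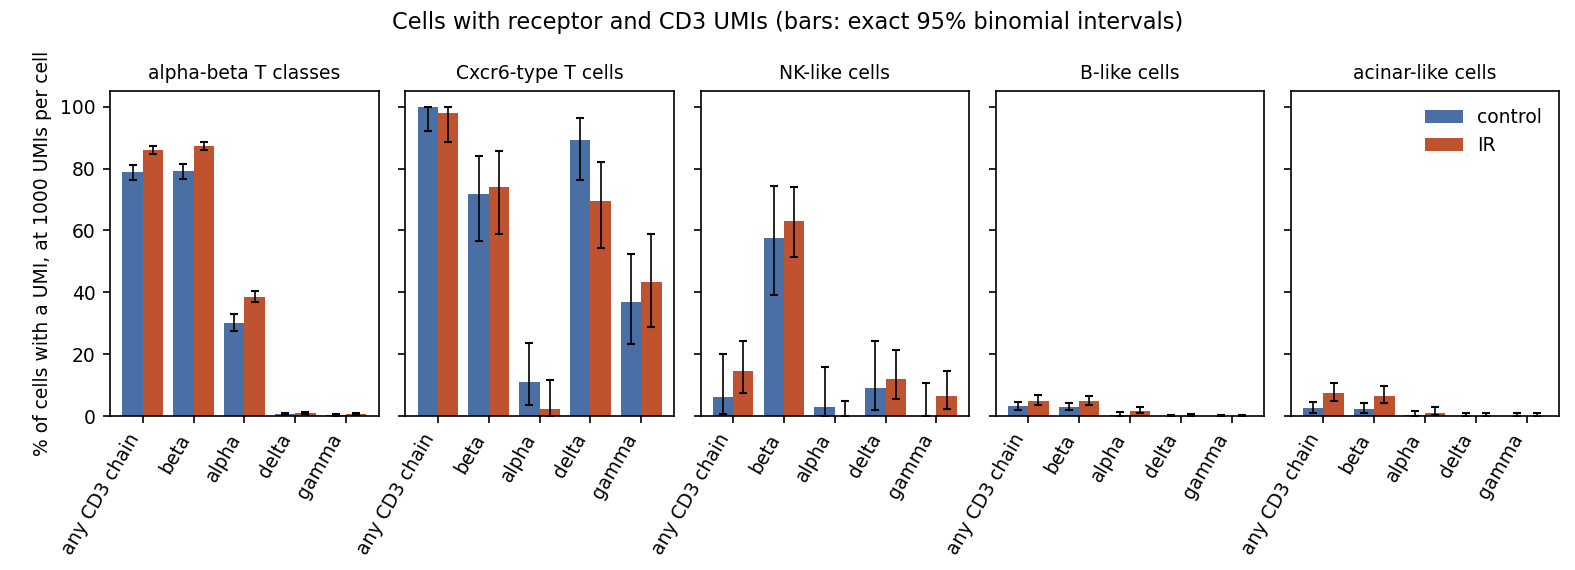
Percent of cells with a UMI of any CD3 chain or of the beta, alpha, delta or gamma constant genes at a common depth of 1000 UMIs, in 5 classes (panels), as bars from 0 with exact 95% binomial intervals for the control and IR libraries. Cells with fewer than 1000 UMIs are left out. Delta and gamma UMIs were frequent only in the Cxcr6-type T-cells among these panels (89.1% and 69.6% of cells for delta), and beta UMIs were found in 57.6% and 63.2% of NK-like cells beside 6.06% and 14.5% with a CD3 UMI.

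In the T-cells as a whole, the alpha, beta and CD3 genes had ratios of IR over control CPM above 1 and Trdc had a ratio below 1. Trac had 365 CPM in the control and 533 CPM in the IR T-cells, a ratio of 1.46 (1.37–1.55). Trbc1 went from 790.0 to 1064 CPM, a ratio of 1.35 (1.29–1.40), and Trbc2 from 1191 to 1625 CPM, a ratio of 1.36 (1.32–1.41). Cd3d had a ratio of 1.22 (1.17–1.28), Cd3e of 1.35 (1.24–1.47) and Cd3g of 1.16 (1.12–1.21). The median over all 10321 genes tested was 1.15 and that over the 10 members was 1.19. No member was at least 1.5-fold higher, where 17.0% of all genes were, and 1 was lower by that fold, where 3.67% were. With TMM factors in place of CPM the median of all genes was 1.02, with 10.1% higher and 6.85% lower, Trac was 1.29, Trbc2 1.21, Cd3d 1.08 and Cd3g 1.03 (0.988–1.07).

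The member past the fold was Trdc, with 159 CPM in the control and 60.5 CPM in the IR T-cells, a ratio of 0.380 (0.336–0.429). Tcrg-C1 had 55 and 71 UMIs and a ratio of 0.678 (0.470–0.982), Tcrg-C2 a ratio of 0.849 (0.544–1.34) and Tcrg-C4 a ratio of 0.939 (0.521–1.74). The intervals of the last 2 included 1. Cxcr6-type cells were 3.86% of control T-cells (2.84–5.11%) and 1.65% of IR T-cells (1.21–2.18%). Without them the Trdc ratio turned to 1.93 (1.27–3.02) and the Cd3g ratio to 1.26. The Trdc intervals given here and by class below take UMIs as independent. In the alpha-beta classes, however, 4 of 1147 control cells held 19 of the 29 Trdc UMIs, and 16 of 2810 IR cells held 68 of the 109. The 1.93 therefore rests in part on few cells. Per cell, T-cells had 0.527 Trdc UMIs in the control and 0.159 in IR. UMIs per T-cell also depend on depth, which was lower in the IR library, and they were lower there for Cd3g (3.09 and 2.86) and Cd3d (2.23 and 2.17), whose CPM ratios were above 1, and higher for Trac (1.21 and 1.40). The parts that the lower share of Cxcr6-type cells and the lower Trdc CPM inside them have in the Trdc ratio of all T-cells were not tested.

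**Figure D4:**
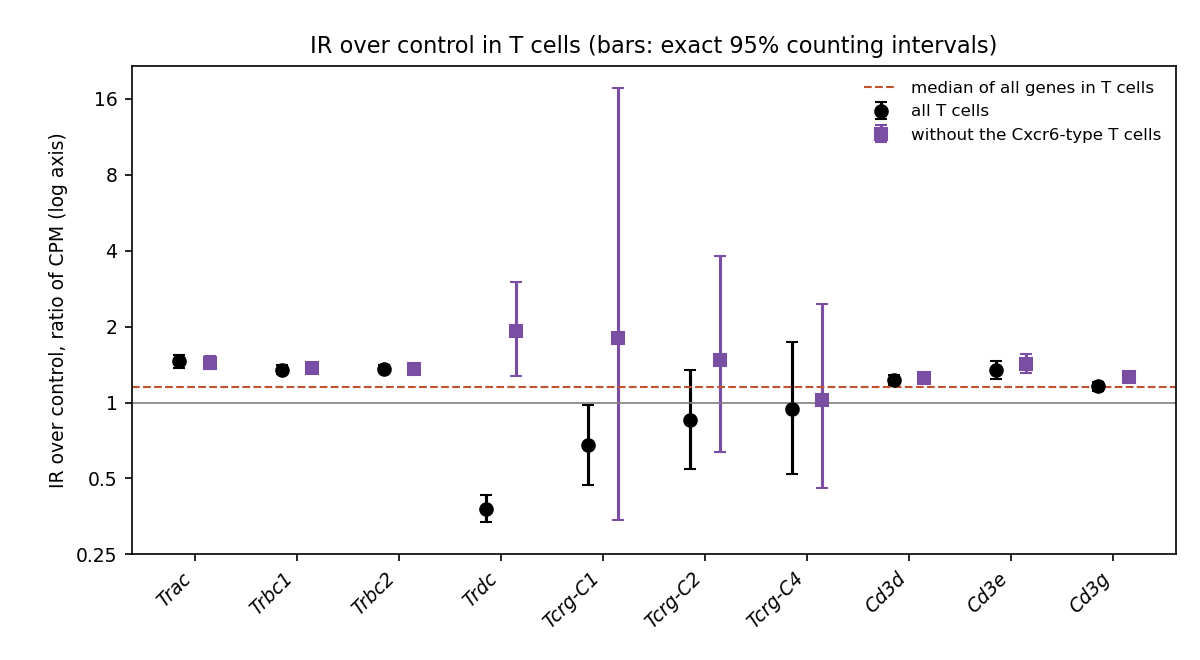
Ratio of IR over control CPM (log axis) for the 10 genes in all T-cells (circles) and without the Cxcr6-type T-cells (squares), with exact 95% counting intervals, a line at 1 and a dashed line at the median of all genes (1.15). Trdc moves from 0.380 to 1.93 when the Cxcr6-type cells are left out, while Trac, Trbc1 and Trbc2 stay between 1.35 and 1.46.

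By T-cell class, few members passed the fold. With 6 or 7 members tested per class, these counts set the members little apart from all genes. In the naive-like Cd4-rich cells 2 of 7 members were at least 1.5-fold higher, Trac at 1.65 (1.48–1.84) and Cd3e at 1.61 (1.37–1.90), where 19.2% of all genes were. These cells are made of 2 sub-clusters, one with 329 control and 491 IR cells, in which 0 of 6 were higher (16.4% of all genes), and one with 60 control and 598 IR cells, led by genes that include Jun and Hspa1b, in which 3 of 6 were (30.9% of all genes). In the first of them Trac had 342 and 412 CPM, a ratio of 1.203 (1.05–1.38). The naive-like Cd8-rich cells too were of 2 sub-clusters, with 212 control and 326 IR cells and 35 control and 292 IR cells. In them the only member higher by the fold was Trdc, at 2.19 (1.08–4.87) on 10 and 44 UMIs, where 19.2% of all genes were higher. In the Treg-like cells 0 of 6 were (17.8% of all genes).

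In the effector CD8-like cells 1 of 7 was higher by the fold, where 18.6% of all genes were higher: Trdc, with 3 UMIs in 1 control cell and 31 UMIs in 14 IR cells, a ratio of 7.25 (2.26–37.1). This class too is made of 2 sub-clusters with unlike shares, one of 182 control and 204 IR cells and one of 42 control and 188 IR cells. In the first the ratio was 3.91 (1.01–22.1) on 3 and 10 UMIs, and the other had 0 control and 21 IR UMIs. In the effector CD8-like and the naive-like Cd8-rich cells alike, Trdc reached 25 UMIs only through the IR library, where it is high. In cluster 6 it was Trbc1, at 1.60 (1.40–1.83), where 23.7% of all genes were higher. In cluster 7 it was again Trbc1, at 1.76 (1.47–2.12), with Trbc2 at 1.13 (0.976–1.31), where 20.9% of all genes were higher. In B-like and acinar-like cells, which should lack the receptor, Trbc1 also had the higher ratio of the beta genes. In B-like cells 5 of 6 members were higher in the IR library, where 12.9% of all genes were, with Trbc1 at 4.68 (3.25–6.89) on 37 and 158 UMIs and Trbc2 at 2.03 (1.58–2.61) on 100 and 185 UMIs. In acinar-like cells 5 of 5 were, where 26.3% of all genes were, with Trbc1 at 5.12 (3.01–9.23) and Trbc2 at 2.23 (1.54–3.28). In B-like cells Trac (23 and 62 UMIs) and Cd3e (18 and 32 UMIs) reached 25 UMIs only through the IR library, where they are high. Among the members called in acinar-like cells, Trac and Trbc1 did so too. The counts in these classes are therefore a description. The beta ratios there rest in part on few cells with several beta UMIs each, and the intervals take UMIs as independent.

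Signalling genes downstream of the receptor were read from a list that held 24 genes for the kinases, adaptors and coreceptors of the pathway, of which 24 had at least 25 UMIs in T-cells. In the IR library 4 of the 24 were at least 1.5-fold higher, near the 17.0% of all genes that were, and 0 were lower, where 3.67% of all genes were, so the counts set the list little apart. The median of the 24 was 1.28, beside 1.15 for all genes, and 22 of them had a ratio above 1. The median of all genes was itself above 1, and their share above 1 is not given here. The 22 are therefore a description only. Those 4 were the adaptor gene Lcp2 (1.81, 1.46–2.24), the costimulator Cd28 (1.65, 1.56–1.74), the kinase gene Prkcq (1.55, 1.34–1.81) and the phospholipase gene Plcg1 (1.504, 1.16–1.96). The kinase genes Lck and Zap70 had ratios of 1.43 and 1.16, and Cd247 a ratio of 1.28.

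Between classes more genes of the same list were past the fold used. In control Cxcr6-type cells 6 of 24 genes were at least 2-fold higher than in the alpha-beta classes and 12 lower, where 15.1% and 21.5% of all genes were. In IR ones these counts were 4 and 11, where 15.9% and 24.0% of all genes were, so the count of higher genes in IR was near that of all genes. Higher in both libraries were Cd247 (2.84 and 2.17 times), Zap70 (2.15 and 2.15 times), Lat (2.88 and 2.10 times) and Rasgrp1 (3.87 and 2.97 times), which encodes an activator of Ras. Lower in both were Lck (0.152 and 0.297 times), the kinase that starts receptor signalling, Cd2 (0.0731 and 0.146 times) and Cd28, on 2 UMIs in the control (0.0297 times, 0.00359–0.107) and 22 in the IR cells (0.232 times). Cd5 and Cd6, surface proteins of T-cells, had 3 and 1 UMIs in the control and 0 and 0 in the IR cells. Some genes of this list were among those the cells were clustered on, so their class differences are a description of the class. The genes counted lower had enough UMIs only through the alpha-beta classes, where they are high, except Ptprc in the control. The counts of lower genes are therefore a description as well.

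**Figure D5:**
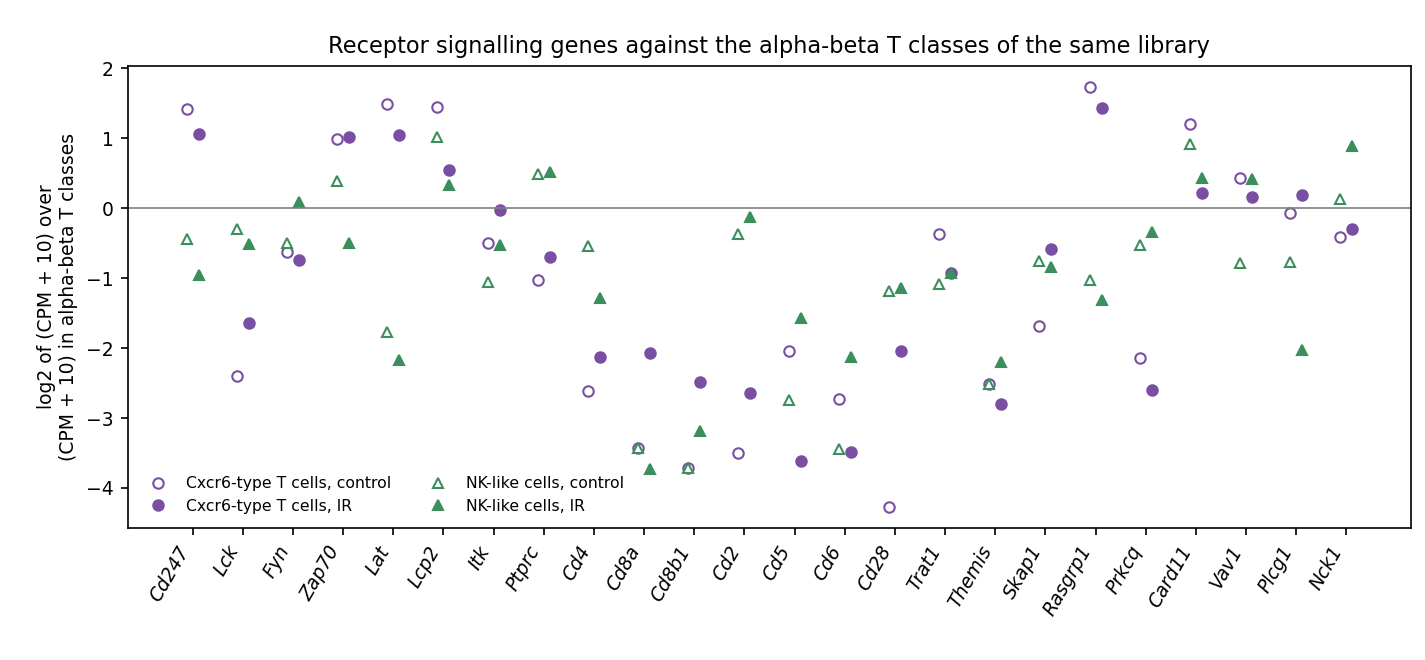
Log2 of the CPM (plus 10) of 24 receptor signalling genes in Cxcr6-type T-cells (circles) and NK-like cells (triangles) over the CPM (plus 10) in the alpha-beta T-cell classes of the same library, open for control and filled for IR. Cd247, Zap70, Lat and Rasgrp1 lie above 0 for the Cxcr6-type cells in both libraries, and Lck, Cd2, Cd5, Cd6 and Cd28 lie below it.

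NK-like cells differed from the alpha-beta classes in some adaptor genes. Fcer1g had 904 and 848 CPM there and Tyrobp 1713 and 1217 CPM, against at most 4.20 CPM of either in the alpha-beta classes. Both genes are among the NK markers that named the class, so their levels are a description of it. Cd247 had 80.0 and 72.8 CPM, 0.714 times (0.340–1.33) and 0.483 times (0.263–0.814) the alpha-beta level, and Hcst, which encodes a further adaptor of killer receptors, had 312 and 244 CPM. In all T-cells Hcst was lower in the IR library, at 0.650 times the control (0.603–0.701).

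A list of 12 genes of the gamma-delta programme that makes interleukin 17 was read in the same way. It shares genes with the markers of that class and with the genes clustered on, so it is not independent of it. In T-cells 11 of 12 had enough UMIs, of which 7 were lower in the IR library and 2 higher by the fold, where 3.67% and 17.0% of all genes were. Their median ratio was 0.587 beside 1.15 for all genes. Il17a was at 0.517 (0.403–0.664), Cd163l1, a scavenger receptor of these cells, at 0.411 (0.333–0.506) and Zbtb16, a transcription factor of innate-like T-cells, at 0.383 (0.240–0.604). Maf was higher, at 1.60 (1.35–1.90), and so was Il17re on 7 and 25 UMIs, which passed the limit of 25 UMIs only through the IR library. Inside the Cxcr6-type cells the median ratio over the 9 genes of the list with enough UMIs was 0.891, and Il17a had 522 CPM in the control and 465 CPM in IR. These cells were 3.86% of control T-cells and 1.65% of IR T-cells, and the part of that share in the T-cell ratios of the list was not tested. Genes of receptor rearrangement were near absent: over all T-cells Rag1 and Rag2 had 0 UMIs in both libraries, Ptcra 1 and 0, and Dntt 6 and 4.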

How the data were processed

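Cells of the parotid gland were captured with 10x Chromium version 3 chemistry, which tags transcript ends. The authors made the deposited matrices of raw UMI counts per gene and cell with Cell Ranger 3.0.1 on the mm10 mouse build; Seurat 3 is also named in the submitters' processing notes. From these counts, 1 matrix per condition, cells with at least 200 genes and at most 5% mitochondrial UMIs were kept. Anchor integration and clustering used Seurat 5.3.0 (R 4.3.3) and 2000 variable genes (30 components, resolution 0.3; T and NK cells again with 20 components, resolution 0.8), with receptor and CD3 genes left out. Doublets were kept, because Scrublet (scanpy 1.11.5) called 0.947% of control and 0.0189% of IR cells; leaving out the 6% with the highest scores was an alternative.

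UMIs were summed per class and library and given per 1e6 UMIs. TMM factors came from edgeR 4.0.16, with no test fitted. Intervals (95%) are exact Poisson, Clopper-Pearson and conditional binomial intervals from scipy 1.17.1. Genes with at least 25 UMIs were called past a fold of 1.5 between libraries or 2 between classes; a count of 0 allows up to 3 counts. Counts for the IR over control comparison of T-cells (10321 genes, 200 changed) were simulated as Poisson draws from the proportions of the summed libraries. In them 199 directions were recovered and 96.4% of intervals held the true ratio. Of changed genes 96 of 100 raised and 87 of 100 lowered passed the fold, as did 5.88% of unchanged genes. The draws follow the counting model of the intervals and hold no spread between cells, mice or libraries, so they check the computation only. The genes named are the 10 members, the gene lists used and the 5 genes most like the CD3 chains. The members and lists were chosen with earlier results of these data known.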

Additional observations from a re-analysis of the deposited data

How the results depend on the processing

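No paired analysis was possible because each condition had 1 library, so no replicate could be left out either, and precision rests on counting error alone. Over the 10 alternatives run for the T-cell ratios, Trac, Trbc1, Trbc2, Cd3d, Cd3e and Cd3g stayed above 1 in 10 of 10. Trac lay between 1.29 and 1.47 and Cd3g between 1.03 and 1.26. A ratio above 1 does not set a gene above all genes, whose median was 1.15 in the main setting. Without the naive-like sub-clusters of 60 control and 598 IR cells and of 35 and 292 cells that median was 1.17. Cd3g (1.09) and Cd3d (1.16) were then below it, and Trac (1.31), Trbc1 (1.31), Trbc2 (1.30) and Cd3e (1.28) above. Leaving out these sub-clusters, and leaving out cluster 7, were chosen after seeing the data. The alternative of at least 100 UMIs changes only which genes are counted, so it cannot move a ratio. With TMM factors Cd3g was 1.03 (0.988–1.07), beside a median of 1.02 for all genes. Without the Cxcr6-type cells, an alternative also chosen after seeing the data, the Trdc ratio reversed from 0.380 to 1.93, which rests in part on few cells with several Trdc UMIs each. By the fold 0 members were then lower and 1 higher, in place of 1 and 0, where 3.33% and 17.8% of all genes were. Lower members were 2 with TMM factors, where 6.85% of all genes were lower. They were also 2 with a mitochondrial limit of 10%, and 2 at the smaller of the folds tried, at which 4 were higher. For the limit of 10% and the smaller fold the shares of all genes are not given here, so those counts are a description only. With the limit of 10% the Cxcr6-type class had 104 control and 104 IR cells.

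The summed level of the 10 genes (1003 and 2279 CPM) became 1060.0 and 2308 CPM with a mitochondrial limit of 10%, 1066 and 2386 CPM with at least 500 genes per cell, 987 and 2234 CPM without the cells of highest Scrublet scores, and 2081 and 3667 CPM without abundant genes. Without those genes control Cxcr6-type cells had 4392 CPM of Trdc and 4026 CPM of Cd3g. Cells with a CD3 UMI were 47.7% and 66.7% with at least 500 genes per cell, 57.7% in the IR library with a mitochondrial limit of 10%, and 35.0% and 53.3% with at least 2 CD3 UMIs, chosen after seeing the data. In alpha-beta cells the share with a CD3 UMI was 94.8% and 97.1% when thinned to 2000 UMIs and 97.7% and 97.3% without thinning. Thinning leaves out the cells with fewer UMIs than the depth used, so these shares are of unlike sets of cells. Alpha-beta cells with both Trbc1 and Trbc2 (49.5% and 52.6%) fell to 29.8% and 33.6% with at least 2 UMIs of each and to 21.8% and 30.2% when thinned, and Cxcr6-type cells with delta and gamma UMIs (69.6% and 68.1%) to 41.3% and 38.3%, and to 37.0% and 32.6%; the thinned pairs were chosen after seeing the data. With Spearman correlation 3 of the 5 genes most like the CD3 chains remained.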
